A study of Homo sapiens with 6 samples.

Results

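The MYC, MAX and MXD network was followed through 10 genes, MYC, MYCN, MYCL, MAX, MXI1, MXD1, MXD3, MXD4, MNT and MLX, taken by symbol from the 60669 genes of the count tables. All 10 were found, and 9 passed the filter on low counts, beside 17575 genes tested in all. MYCN did not pass and is described by its counts alone. The cells were 293T, a transformed human embryonic kidney line that carries the large T antigen of SV40, and total RNA was sequenced in 6 libraries, 2 per group. The control cells were wild-type and untreated, per the labels. In the second group MLL2 had been knocked out with CRISPR/Cas9, and the third was depleted of PRMT1 with a short hairpin RNA. PRMT1 is the main enzyme that places asymmetric dimethylarginine, and MLL2 methylates lysine 4 of histone H3. The name MLL2 has stood for KMT2B and for KMT2D. The labels leave unsaid which of these genes was edited, whether the knockout cells came from 1 clone, or whether the control and knockout cells carried a non-targeting hairpin. The headers of the count files tag the alignments WTshNT (control), MKshNT (knockout) and WTshPR (knockdown), tags that the labels do not explain. The libraries of a group are described as biological replicates. With 2 per group, each test rests on a spread shared by all 6 libraries, with 3 residual degrees of freedom. The edgeR fit also drew the spread of each gene toward that of all genes, and the small p-values rest on that as well.

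MYC, MYCN and MYCL are basic helix-loop-helix leucine zipper proteins that bind DNA only after pairing with MAX. The pairs recognise the E-box, a short palindromic DNA element, and raise transcription of genes for ribosome production, nucleotide synthesis and growth. MXI1, MXD1, MXD3, MXD4 and MNT compete for MAX and for the same element, and they recruit SIN3 and histone deacetylases that lower transcription. MLX is a second pairing partner, shared by some of the MXD proteins and MNT with the nutrient-sensing factors MondoA (the product of MLXIP) and ChREBP (the product of MLXIPL). Cells that proliferate usually hold much MYC, and MXD1 and MXI1 are best known from cells that stop dividing and differentiate.

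Libraries held 20061471 to 22351532 counts. PRMT1 stood at 306 and 319 CPM (counts scaled to library size, here with TMM factors) in the control libraries, 406 and 425 in the knockout and 38.2 and 34.9 in the knockdown. The knockdown was 8.56-fold lower than control (edgeR quasi-likelihood test, adjusted p = 5.51e-16). KMT2B (6.74 and 7.53 CPM in control, 7.12 and 7.36 in the knockout) and KMT2D (22.5 and 17.0 against 20.8 and 24.2) overlapped between control and knockout, and a total count over a gene does not check a small edit. In the knockdown both were higher, and its libraries differed, at 13.4 and 26.7 CPM for KMT2B and 37.8 and 95.5 for KMT2D. The 8 genes listed as marks of 293T summed to 890 to 1247 CPM. Most of the sum came from VIM (490 to 751 CPM), NEFL (53.3 to 352) and LIN28B (112 to 185). Of the 8, PAX2 stayed at or below 0.541 CPM and LHX1 at or below 1.82. The 7 genes of blood, endothelium, fibroblasts, liver and erythroid cells summed to 2.03 to 4.82 CPM, with CD3E at 0 in all 6 libraries.

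In control cells MYC was the most abundant of the 10 transcripts. On a scale that corrects for exon length (RPKM, CPM per kilobase of exon), MYC stood at 44.3 ± 1.85 (SD, n = 2), followed by MLX at 13.6 ± 0.112 and MXI1 at 12.5 ± 1.45. MXD4 (10.2 ± 0.649), MAX (6.93 ± 0.00713), MXD3 (4.52 ± 0.282) and MYCL (3.78 ± 0.0871) came next. MNT (1.02 ± 0.0905), MXD1 (0.445 ± 0.0375) and MYCN (0.133 ± 0.0817) closed the order. No neighbours in this order overlapped between their 2 libraries, although MLX and MXI1 came within 13.6 and 13.5 RPKM of each other. The knockout kept the order, with MNT and MXD1 overlapping. In the knockdown MYC was still first, at 13.7 ± 0.175 RPKM, with MXD4 (10.9 ± 0.515) and MLX (9.68, with libraries at 10.6 and 8.72), which overlapped, behind it. MXD1 rose there to 1.96 ± 0.0267 RPKM, above MYCL (1.65 ± 0.0485) and MNT (0.990 ± 0.269). Parts of this order depend on the division by exon length. By mean CPM, MXD4 was above MYC in the knockdown (75.1 against 62.9). In control, MXI1 (73.8 CPM) and MXD4 (70.0) were above MLX (58.1) on that scale, and MYC (203) was still first.

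**Figure D1:**
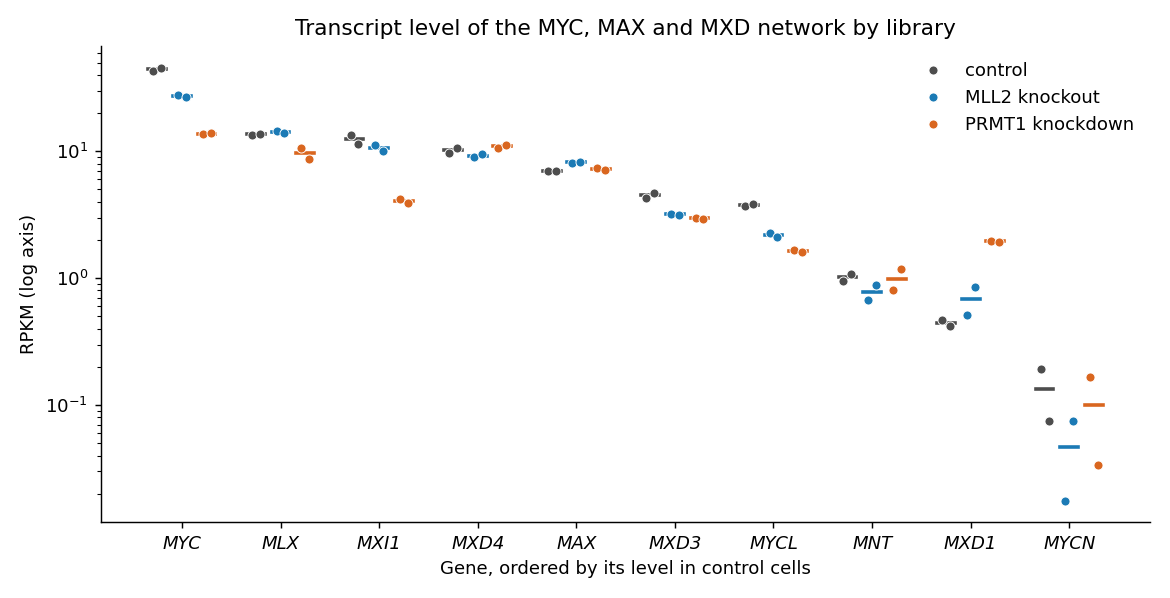
Level of each of the 10 genes in each library, in RPKM on a log axis. Points are libraries, 2 per group, and bars are group means; genes run from the highest to the lowest level in control cells. MYC falls from 44.3 RPKM in control to 27.2 in the knockout and 13.7 in the knockdown, and MXD1 goes from 0.445 in control to 1.96 in the knockdown.

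MYC and MYCL transcripts were lower in both depletions, and MXD1 was higher in the PRMT1 knockdown. In the knockout 3 of the 9 tested members were lower (MYC, MYCL and MXD3), 0 were higher and 6 were not called at an adjusted p under 0.05, against 22.4% of all genes tested that were called there. With either knockdown library left out, 5 members were called in that comparison, the added ones being MAX (higher) and MXI1 (lower), beside 28.2% and 29.4% of all genes in those fits. Without control replicate 2 or knockout replicate 2 only 2 members were called, beside 10% and 11.8% of all genes. The median log2 change of the 9 members was -0.23, beside -0.01 over all genes tested. In the knockdown 5 members were lower (MYC, MYCL, MXI1, MXD3 and MLX), 1 was higher (MXD1) and 3 were not called (MAX, MXD4 and MNT), against 47.4% of all genes called. The median of the members was -0.50, beside -0.04 over all genes. Both comparisons use the same control libraries.

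MYC, on chromosome 8 (127735434 to 127742951, plus strand, ENSG00000136997.20, hg38), encodes the main activator of the network. It stood at 197 and 209 CPM in the control libraries, 127 and 123 in the knockout and 62.3 and 63.5 in the knockdown. The 3 groups did not overlap, and within each group the 2 libraries lay close together. MYC was 1.63-fold lower in the knockout (log2 change -0.70 ± 0.08 SE, adjusted p = 4.37e-06) and 3.23-fold lower in the knockdown (log2 change -1.69 ± 0.09, adjusted p = 4.3e-12). The knockdown also lay below the knockout, with a log2 difference of -0.99 ± 0.09 (adjusted p = 1.47e-08), in a comparison in which 40.7% of all genes were called. Bulk RNA does not tell fewer cells with a transcript from less transcript per cell.

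MYCL, on chromosome 1 (39895426 to 39902256, minus strand, ENSG00000116990.11), encodes L-MYC, a family member with weaker transforming activity. Its levels were 18.8 and 19.4 CPM in control, 11.5 and 10.7 in the knockout and 8.51 and 8.16 in the knockdown. The order of the groups was that of MYC, without overlap. The log2 change was -0.78 ± 0.16 in the knockout (adjusted p = 0.00164) and -1.20 ± 0.17 in the knockdown (adjusted p = 5.61e-06). Between knockdown and knockout MYCL differed by -0.41 ± 0.17, which was not called (adjusted p = 0.0593). MYCN, on chromosome 2 (15940550 to 15947007, plus strand, ENSG00000134323.12), encodes N-MYC of neural progenitors and neuroblastoma. It had 10 and 4 counts in the control libraries, 1 and 4 in the knockout and 9 and 2 in the knockdown. The counts of the groups overlapped or met, and no difference was detectable at this depth.

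MYC sits distally on chromosome 8, in a stretch whose genes were mostly lower in the knockout. Among 251 other genes of chromosome 8 from 50 Mb on that averaged more than 2 in log2 CPM, 156 were lower and 1 was higher in the knockout, with a median log2 change of -0.45. Over the 142 genes below 50 Mb the median was -0.02, with 32 lower and 18 higher. MYC stood 0.25 below the median of its arm, on the log2 scale, and 65 of the 251 genes had an estimate as low as that of MYC or lower. Within 5 Mb of MYC, 14 of 23 genes were lower and 1 was higher, with a median of -0.50. In the knockdown the same 251 genes had a median of -0.08 (81 lower, 58 higher), the 23 nearest a median of 0.07 (4 lower, 4 higher), and 7 of the 251 were as low as MYC. The change of the arm and that of MYC in the knockout cannot be told apart by these counts. The same holds for PVT1, NDRG1 and KLF10, named below, which lie in this stretch. BOP1 (log2 change -0.38) and FBXO32 (-0.81) lie there too. Each is the 1 gene lower in the knockout in its list below, of ribosome biogenesis and of MYC protein stability. For the other 9 members the median change of genes within 5 Mb lay between -0.06 and 0.12 in the knockout.

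**Figure D2:**
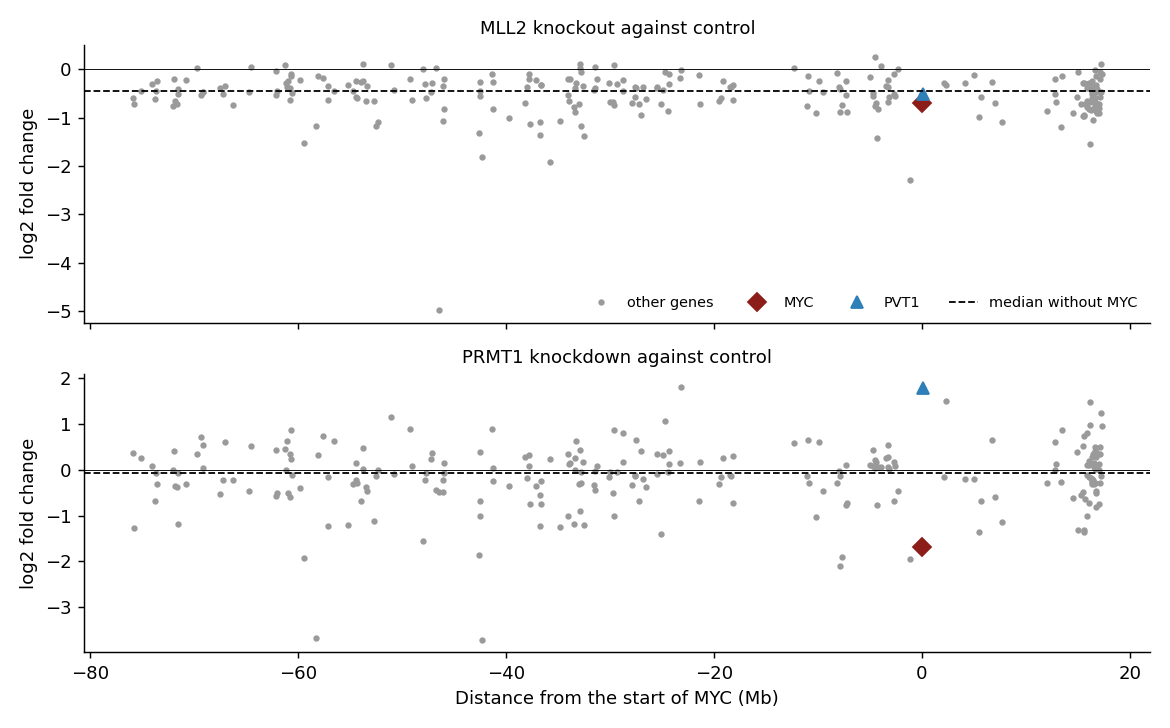
Log2 change of genes on chromosome 8 from 50 Mb on, by distance from the start of MYC in Mb, in the MLL2 knockout (top) and the PRMT1 knockdown (bottom), each against control. Grey points are other genes, the diamond is MYC, the triangle PVT1, and the dashed line is the median of the 251 genes without MYC, at -0.45 (top) and -0.08 (bottom).

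PVT1, a long non-coding RNA gene next to MYC, went the other way from MYC in the knockdown. It stood at 9.43 and 9.20 CPM in control, 5.82 and 7.21 in the knockout and 22.5 and 41.5 in the knockdown. The knockdown libraries were both above all others, and they differed from each other. PVT1 was higher by a log2 change of 1.78 ± 0.22 in the knockdown (adjusted p = 8.76e-07), and by 1.27 without knockdown replicate 2. In the knockout its log2 change was -0.52 ± 0.23 (adjusted p = 0.121), and it was called lower with the exon length correction (adjusted p = 0.049) and without either knockdown library (adjusted p = 0.0304 without replicate 2).

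Among the 11493 named genes with an average log2 CPM above 2, FN1, CRAT, SHMT2, COL6A1 and KLF9 had the pattern most like that of MYC over the 6 libraries. Likeness was the Euclidean distance between log2 CPM values set relative to the control mean. It ran from 0.126 (FN1) to 0.222 (KLF9), with a median of 2.62 over all genes ranked. FN1 encodes fibronectin, and its log2 change was -0.71 in the knockout and -1.68 in the knockdown. SHMT2, the mitochondrial serine hydroxymethyltransferase, was at -0.75 and -1.73. CRAT encodes carnitine acetyltransferase, COL6A1 a collagen chain and KLF9 a zinc-finger factor, and they ranged from -0.77 to -0.63 in the knockout and from -1.77 to -1.66 in the knockdown.

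The pairing partners had smaller log2 changes than MYC, with no test of that difference. MAX, on chromosome 14 (65006174 to 65102695, minus strand, ENSG00000125952.20), stood at 43.4 and 43.4 CPM in control, 51.0 and 51.5 in the knockout and 45.8 and 44.6 in the knockdown. The knockout libraries were the highest and no 2 groups overlapped. The log2 change of 0.24 ± 0.10 in the knockout was not called with all 6 libraries (adjusted p = 0.0927), and was called without knockdown replicate 1 (adjusted p = 0.0491) or replicate 2 (adjusted p = 0.0462). In the knockdown the log2 change was 0.06 ± 0.10 (adjusted p = 0.663).

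MLX, on chromosome 17 (42567068 to 42573239, plus strand, ENSG00000108788.11), stood at 57.7 and 58.4 CPM in control, 61.2 and 59.6 in the knockout and 45.3 and 37.1 in the knockdown. The knockdown libraries were both below the other 4. MLX was 1.41-fold lower there than in control (log2 change -0.50 ± 0.11, adjusted p = 0.000671) and lower than in the knockout (-0.55 ± 0.11, adjusted p = 0.000297). Its log2 change in the knockout was 0.06 ± 0.11 (adjusted p = 0.753).

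The antagonists divided by member, and the largest changes were in the knockdown. MXI1, on chromosome 10 (110207605 to 110287365, plus strand, ENSG00000119950.21), had the highest RPKM of the 5 antagonists in control cells. It stood at 79.8 and 67.7 CPM in control, 65.6 and 59.9 in the knockout and 24.7 and 23.1 in the knockdown. The knockdown libraries lay far below the rest, and the knockout libraries just under control replicate 2. MXI1 was 3.09-fold lower in the knockdown (log2 change -1.63 ± 0.11, adjusted p = 3.32e-10). In the knockout its log2 change was -0.23 ± 0.11 (adjusted p = 0.12), and it was called without knockdown replicate 1 (adjusted p = 0.0463) or replicate 2 (adjusted p = 0.0399). That change was -0.11 (adjusted p = 0.675) without control replicate 1 and -0.35 (adjusted p = 0.104) without control replicate 2. Against the knockout the knockdown was lower by a log2 difference of -1.39 ± 0.11 (adjusted p = 5.67e-09).

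MXD1, on chromosome 2 (69897688 to 69942945, plus strand, ENSG00000059728.11), encodes MAD1, the antagonist best known from terminal differentiation. It stood at 2.99 and 2.66 CPM in control, 3.28 and 5.45 in the knockout and 12.6 and 12.3 in the knockdown. Its counts were low, from 54 in a control library to 281 in a knockdown library, and the knockdown libraries were both above all others. MXD1 was 4.40-fold higher in the knockdown (log2 change 2.14 ± 0.26, adjusted p = 9.88e-07) and higher there than in the knockout (1.51 ± 0.25, adjusted p = 5.36e-05). In the knockout the 2 libraries differed, and the log2 change of 0.62 ± 0.27 was not called (adjusted p = 0.11). Knockout replicate 2 carried most of it, since without replicate 1 the change was 0.95 (adjusted p = 0.0273) and without replicate 2 it was 0.22.

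MXD3, on chromosome 5 (177301461 to 177312757, minus strand, ENSG00000213347.10), is known for its peak in S phase of proliferating cells. It stood at 22.3 and 24.3 CPM in control, 16.6 and 16.2 in the knockout and 15.5 and 15.0 in the knockdown. Both depleted groups were below control, and they lay close to each other without overlap. The log2 change was -0.61 ± 0.14 in the knockdown (adjusted p = 0.00133) and -0.50 ± 0.14 in the knockout (adjusted p = 0.0142). The knockout call was lost without control replicate 2 (adjusted p = 0.145), without knockout replicate 1 (adjusted p = 0.0772) and without knockout replicate 2 (adjusted p = 0.109). Knockdown and knockout differed by -0.11 ± 0.15 (adjusted p = 0.585).

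MXD4, on chromosome 4 (2247432 to 2262109, minus strand, ENSG00000123933.17), encodes another MAX-binding repressor of the MXD family. It stood at 66.8 and 73.1 CPM in control, 61.8 and 65.1 in the knockout and 72.6 and 77.6 in the knockdown. Control and knockdown overlapped, and the knockout was the lowest. Neither depletion was called against control (log2 change -0.14 ± 0.09, adjusted p = 0.315, and 0.10 ± 0.09, adjusted p = 0.387). The knockdown was above the knockout by 0.24 ± 0.09 (adjusted p = 0.0436), a call that was lost under 7 of 13 alternatives, with adjusted p up to 0.306 when knockout replicate 1 was left out.

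MNT, on chromosome 17 (2384073 to 2401104, minus strand, ENSG00000070444.15), encodes the repressor found in most cell types whether or not they divide. It stood at 8.33 and 9.45 CPM in control, 5.87 and 7.70 in the knockout and 6.96 and 10.3 in the knockdown. The knockdown libraries spanned the control libraries, and the knockout libraries were both below control. None of its comparisons was called, with log2 changes of -0.39 ± 0.23 in the knockout (adjusted p = 0.247) and -0.04 ± 0.23 in the knockdown (adjusted p = 0.894). The knockout value was -0.21 without knockout replicate 1 and -0.59 without knockout replicate 2. The knockdown value changed sign with the libraries used, being 0.20 without knockdown replicate 1 and 0.04 without control replicate 2.

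**Figure D3:**
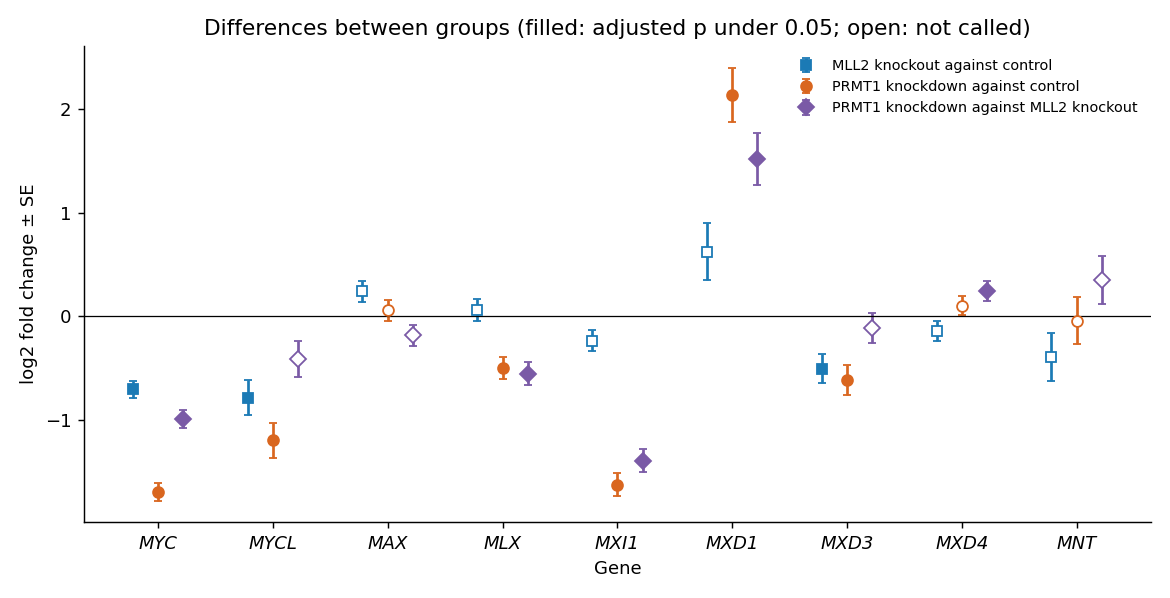
Log2 fold change ± SE of the 9 tested genes in the 3 comparisons, from edgeR fitted to all 6 libraries. Filled symbols passed an adjusted p under 0.05; MXD1 in the knockdown, at 2.14, is the highest and MYC, at -1.69, the lowest against control.

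Groups were separate for most members in any case. The libraries did not overlap for 9 of 9 tested members in the knockout, 7 of 9 in the knockdown and 8 of 9 between knockdown and knockout, where 62.6%, 73.5% and 70% of all genes tested did not overlap either. Between knockdown and knockout 3 members were lower (MYC, MXI1 and MLX), 2 were higher (MXD1 and MXD4) and 4 were not called, against 21.4% of all genes lower and 19.4% higher. Changes in the knockdown went with exon length, and so did the gap between its 2 libraries. Over genes averaging more than 2 in log2 CPM, the median change in the knockdown ran from -0.45 for genes under 1000 nt of exon to 0.16 for those over 8000 nt. It ran from -0.05 to 0.04 over the same classes in the knockout. The median of replicate 2 minus replicate 1 went from -0.22 in the shortest class to 0.09 in the longest in the knockdown. The same gap went from 0.02 to -0.04 in control and from -0.08 to 0.02 in the knockout. The members span 2616 to 8701 nt. With a correction for exon length all member calls were kept except that of MXD4 between knockdown and knockout.

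Summed over members, transcripts of activators exceeded those of antagonists in control cells and fell below them in the knockdown. MYC, MYCL and MYCN together stood at 46.9 and 49.6 RPKM in the control libraries, 29.9 and 29.0 in the knockout and 15.4 and 15.5 in the knockdown. The 5 antagonists together stood at 29.0 and 28.3, at 24.5 and 24.5, and at 20.5 and 21.2 RPKM. The ratio of the sums was 1.62 and 1.75 in control, 1.22 and 1.18 in the knockout and 0.752 and 0.730 in the knockdown, and no groups overlapped. No test was made on these sums, and the point where the ratio crosses 1 depends on the length correction. Without it the group ratios were 1.25, 0.885 and 0.529, in the same order.

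Within the sums, MYC made up 91.7% and 92.1% of the activator RPKM in control and 88.0% and 89.4% in the knockdown. MNT and MXD4 together rose from 36.8% and 41.4% of the antagonist RPKM in control to 55.4% and 58.8% in the knockdown, where MXI1 had fallen. In the knockout the shares were 39.4% and 42.3%. The ratio of activator RPKM to MAX RPKM was 6.76 and 7.15 in control, 3.67 and 3.52 in the knockout and 2.11 and 2.17 in the knockdown. It rests on annotated exon lengths and is not a count of transcripts. For antagonists the same ratio was 4.18 and 4.09 in control, 3.01 and 2.98 in the knockout and 2.81 and 2.98 in the knockdown. RNA levels do not give the amounts of protein or of dimers.

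**Figure D4:**
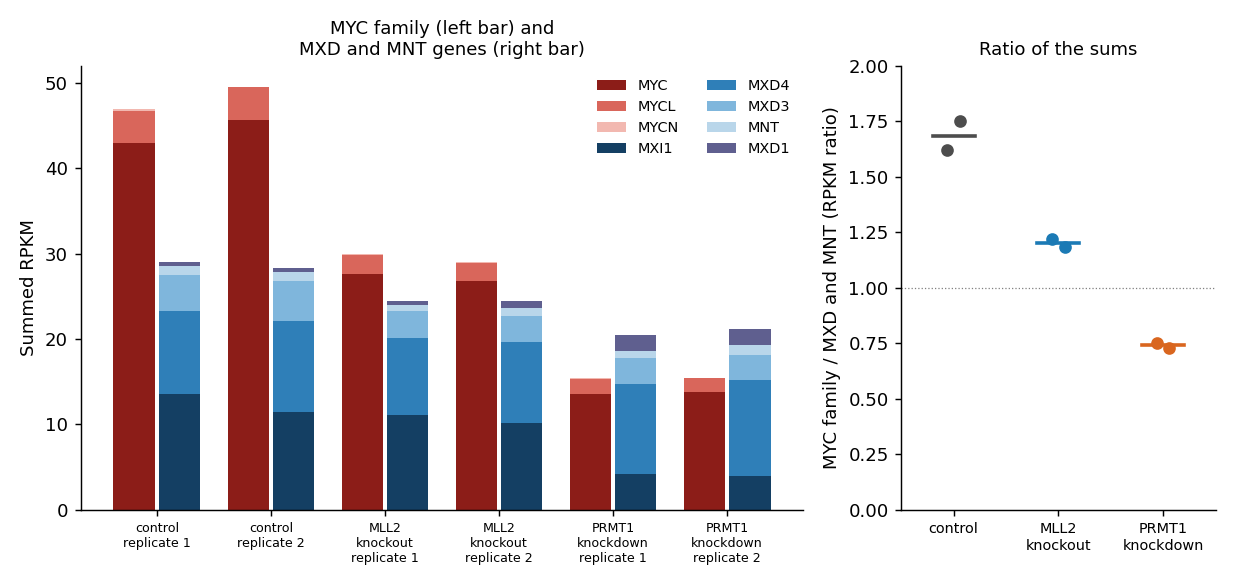
Left, summed RPKM of the MYC family (red, left bar of each pair) and of the MXD and MNT genes (blue, right bar) in each library, stacked by gene. Right, the ratio of the sums per library with group means as bars; it is above 1 in the control and knockout libraries and below 1 in both knockdown libraries (0.752 and 0.730).

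The E-box that the pairs of this network bind best is CACGTG, which reads the same on both strands. RefSeq promoters (GRCh38.p14, 250 bases before to 50 after a transcript start) were at hand for 9 of the 10 members, in 12 entries. The member without an entry was MYC, whose promoter was therefore not searched. Of the 9 genes, 3 held the motif, MXD4, MNT and MLX, all of them upstream of the start, beside 8.77% of the 27305 genes of the table. By entry this was 3 of 12, beside 7.26% of 35116 promoters. The related CACGCG, searched on both strands, was in 2 of the 12 entries (MXI1 and MXD3) and in 11.4% of all promoters. The windows of 60 bases around the 3 matches are shown because they place the network's own element in the promoters of its members. Each reads 5′ to 3′ on the gene's strand, with the motif in capitals. MXD4 is at chr4:2262300-2262359, minus strand, with the motif at -238 from the start. MNT is at chr17:2401221-2401280, minus strand, with the motif at -193, and MLX at chr17:42567023-42567082, plus strand, at -50.
MXD4: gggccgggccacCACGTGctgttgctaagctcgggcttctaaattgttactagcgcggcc
MNT: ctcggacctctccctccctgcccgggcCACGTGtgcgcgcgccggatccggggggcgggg
MLX: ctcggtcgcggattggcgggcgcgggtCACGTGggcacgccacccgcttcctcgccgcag
Of the 3, MLX was lower in the knockdown and the other 2 were not called against control. A match is a string of letters and does not show binding.

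The wider network was read from lists of genes chosen for their known roles, each beside the 10.3% of all tested genes higher and 12.1% lower in the knockout, and the 22.2% higher and 25.3% lower in the knockdown. Counts in the knockout depended on the libraries in the fit. Without 1 of the control or knockout libraries 3.87% to 4.89% of all genes were higher and 6.17% to 6.89% lower, and without 1 of the knockdown libraries 13.9% to 14.4% and 14.3% to 15%. In the knockdown 15.2% to 20.2% were higher and 18.6% to 23.5% lower over the 6 fits without 1 library. A list of 6 genes held further partners of MAX and MLX (MGA, MLXIP and MLXIPL) and proteins of the Polycomb complex of MGA (PCGF6, L3MBTL2 and E2F6). Of these, 0 were called in the knockout. The median log2 change there was 0.18, and 0.10 to 0.20 over the fits without 1 library. In the knockdown 4 were higher and 2 lower (median 0.45). MLXIP, which encodes MondoA, stood at 14.9 and 13.6 CPM in control and 20.8 and 41.7 in the knockdown. Its log2 change was 1.14 ± 0.22 (adjusted p = 0.000176), or 0.55 without knockdown replicate 2. MLXIPL, which encodes ChREBP, was lower in the knockdown (-1.02, adjusted p = 0.0402) and was not called by DESeq2 (adjusted p = 0.0789). Its change was -0.58 without knockdown replicate 1 and -1.69 without replicate 2. MGA, a large repressor that pairs with MAX, was higher by 0.59 ± 0.08 (adjusted p = 6.93e-06), and by 0.31 with the exon length correction. E2F6, its partner in a Polycomb complex, was higher by 0.58 ± 0.11 (adjusted p = 0.00011).

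Of 16 coactivators of MYC, 2 were higher and 1 lower in the knockout (median 0.16), with 1 to 5 higher and 0 or 1 lower over the fits without 1 library, the 5 being those without a knockdown library. In the knockdown 9 were higher and 2 lower (median 0.30), with 6 to 8 and 2 over the same fits. CREBBP and EP300, which acetylate histones, were higher in the knockdown by log2 changes of 1.87 ± 0.16 and 1.39 ± 0.15 (adjusted p = 1.13e-08 and 2.79e-07). CREBBP stood at 14.7 and 17.9 CPM in control and at 47.7 and 71.4 in the knockdown, so that the knockdown libraries differed from each other but not in direction. RUVBL1 and RUVBL2, ATPases of the TIP60 complex, were lower there by -0.44 ± 0.09 and -0.65 ± 0.08 (adjusted p = 0.000417 and 1.66e-06). RUVBL2 was also lower in the knockout (-0.25, adjusted p = 0.0363), where RUVBL1 was not called (0.24, adjusted p = 0.0596). KAT2A, the acetyltransferase of the SAGA complex, was higher in the knockdown (0.57 ± 0.10, adjusted p = 9.11e-05) and in the knockout (0.40, adjusted p = 0.00672). PAF1 was higher in the knockout (0.43 ± 0.09, adjusted p = 0.00141).

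Of 15 corepressors used by the MXD proteins and MNT, 4 were higher and 1 lower in the knockout (median 0.03; 2 to 4 and 0 or 1 over the fits without 1 library), and 5 were higher and 6 lower in the knockdown (median 0.11). Neither median kept its size: over the fits without 1 library they ran from -0.04 to 0.11 in the knockout and from 0.01 (without knockdown replicate 1) to 0.13 in the knockdown. BRMS1 and ARID4B, both parts of SIN3 complexes, were higher in both. BRMS1 stood at 62.9 and 66.6 CPM in control, 102 and 100.2 in the knockout and 114 and 94.7 in the knockdown, and ARID4B at 80.2 and 79.0, 103 and 108, and 136 and 141. Their log2 changes were 0.64 ± 0.10 and 0.40 ± 0.08 in the knockout (adjusted p = 7.9e-05 and 0.00162) and 0.69 ± 0.10 and 0.80 ± 0.08 in the knockdown (adjusted p = 6.04e-06 and 1.44e-07). RBBP4 and RBBP7, histone chaperones of several deacetylase complexes, were lower in the knockdown, by -0.46 ± 0.08 each (adjusted p = 6.18e-05 and 0.000109).

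Of 17 genes that act on MYC protein stability, 4 were higher and 1 lower in the knockout (median 0.18), or 8 and 1 without either knockdown library and 1 and 0 without control replicate 2. Leaving out control replicate 1 or a knockout library gave 1 or 2 higher. In the knockdown 9 were higher and 2 lower (median 0.31), or 8 and 4 without knockdown replicate 1, 11 and 2 without replicate 2, and 7 to 9 and 2 without another library. The list mixes genes that stabilise MYC with genes that mark it for degradation, so its counts and medians have no direction for MYC stability. Whether the change of any gene of the list altered MYC protein was not tested. FBXO28, an F-box protein that ubiquitinates MYC, stood at 107 and 112 CPM in control, 153 and 159 in the knockout and 229 and 210 in the knockdown, with log2 changes of 0.50 ± 0.08 and 1.0 ± 0.08 (adjusted p = 0.000209 and 6.3e-09). SKP2, another ubiquitin ligase subunit for MYC, was lower in the knockdown (-0.57 ± 0.08, adjusted p = 8.21e-06). GSK3B, the kinase that marks MYC for degradation, was higher in the knockdown (0.95 ± 0.13, adjusted p = 3.84e-06) and in the knockout (0.39, adjusted p = 0.0377). Its knockout value was 0.6 without control replicate 1 and 0.21 without control replicate 2. Of 15 genes listed for control of MYC transcription and mRNA 10 were tested, of which 3 were higher and 0 lower in the knockout (median 0.18), or 5 and 1 without either knockdown library, and as few as 1 higher with another library left out. In the knockdown 4 were higher and 1 lower (median 0.33), or 6 and 1 without knockdown replicate 2, and 4 and 0 (median 0.12) without control replicate 1. IGF2BP1, an RNA-binding protein that stabilises MYC mRNA, stood at 97.1 and 85.5 CPM in control and 211 and 332 in the knockdown, higher by 1.57 ± 0.14 (adjusted p = 1.9e-08).

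Genes known to be raised by MYC were called in both directions. Of 19 ribosome biogenesis genes, 8 were higher and 1 was lower in the knockout (median 0.29), or 15 and 1 without either knockdown library and 3 and 0 without control replicate 2. Leaving out control replicate 1 or a knockout library gave 4 to 6 higher. The median stayed between 0.27 and 0.30 over these fits. In the knockdown 8 were higher and 3 lower (median 0.17), or 7 and 5 without knockdown replicate 1, 11 and 3 without replicate 2, and 6 and 2 without control replicate 2. NOP16, POLR1B and RRP12, which act in ribosome assembly and ribosomal RNA synthesis, were higher in both depletions. NOP16 stood at 46.5 and 46.5 CPM in control, 80.8 and 76.8 in the knockout and 81.3 and 71.5 in the knockdown, with log2 changes of 0.76 ± 0.10 and 0.72 ± 0.10 (adjusted p = 1.2e-05 and 3.7e-06). POLR1B, a subunit of RNA polymerase I, had log2 changes of 0.45 ± 0.08 and 0.62 ± 0.08 (adjusted p = 0.000532 and 3.23e-06). FBL, the fibrillarin methyltransferase of nucleolar RNA and itself a substrate of PRMT1, was lower in the knockdown (125 and 131 CPM in control, 70.4 and 71.3 in the knockdown, log2 change -0.85 ± 0.09, adjusted p = 6.96e-08). The motif CACGTG was in the promoters of 6 of the 15 of these genes in the RefSeq table, beside 8.77% of its 27305 genes.

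Of 33 metabolic and growth genes known to be raised by MYC, 11 were higher and 6 lower in the knockout (median 0.12), and 9 higher and 12 lower in the knockdown (median -0.03). Without knockdown replicate 1 the knockdown count was 9 higher and 16 lower (median -0.15), and without replicate 2 it was 12 and 11 (median 0.04). It was 6 and 8 without control replicate 1 and 7 and 6 without control replicate 2. In the knockout 16 were higher and 7 lower without either knockdown library, and 5 to 7 higher and 4 or 5 lower without 1 of the other libraries. SHMT2 stood at 470 and 485 CPM in control, 288 and 279 in the knockout and 153 and 134 in the knockdown, and was lower in both depletions (-0.75 ± 0.08 and -1.73 ± 0.09, adjusted p = 2.32e-06 and 3.31e-12). CAD, the enzyme that starts pyrimidine synthesis, was higher in both (0.54 ± 0.10 and 1.01 ± 0.10, adjusted p = 0.000781 and 1.01e-07). LDHA, the lactate dehydrogenase of glycolysis, and IMPDH2, of guanine nucleotide synthesis, were lower in the knockdown (-0.95 ± 0.08 and -0.86 ± 0.08, adjusted p = 9.03e-09 and 3.88e-08). IMPDH2 was also lower in the knockout (-0.27, adjusted p = 0.0205), where LDHA was not called (0.05, adjusted p = 0.737). TERT, the telomerase subunit, stood at 4.84 and 4.67 CPM in control, 0.832 and 1.42 in the knockout and 9.33 and 9.04 in the knockdown. It was lower in the knockout (-2.08 ± 0.31, adjusted p = 7.67e-05) and higher in the knockdown (0.95 ± 0.26, adjusted p = 0.00532). SLC1A5, a glutamine transporter, was lower in the knockout (-0.65 ± 0.08, adjusted p = 1.07e-05). Of the 28 of these genes in the RefSeq table, 15 held CACGTG, beside 8.77% of its 27305 genes. The motif was also in 4 of 13 genes for MYC protein stability and 3 of 11 coactivators in that table. In the lists below it was in 3 of 7 MLX targets and 1 of 8 genes held down by MYC. It was in 1 of 14 corepressors, 0 of 6 genes listed with MGA and 0 of 8 for MYC transcription and mRNA.

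Genes known to be held down by MYC moved in both directions. Of 12 tested, 1 was higher and 2 lower in the knockout (median -0.04), with 0 to 2 higher, 1 to 3 lower and medians from -0.16 to 0.05 over the fits without 1 library. In the knockdown 3 were higher and 4 lower (median -0.46). CDKN2B, the p15 inhibitor of cyclin-dependent kinases, stood at 6.39 and 7.28 CPM in control and 17.5 and 17.95 in the knockdown, higher by 1.37 ± 0.18 (adjusted p = 2.54e-06). CDKN1B, which encodes p27, was higher by 0.62 ± 0.11 (adjusted p = 6.21e-05). CDKN1A, which encodes p21, was lower, at 37.6 and 40.8 CPM in control and 18.04 and 15.8 in the knockdown (-1.21 ± 0.13, adjusted p = 1.05e-07). CDKN1A was also lower in the knockout (-0.40, adjusted p = 0.022). NDRG1, a stress-response gene in the chromosome 8 stretch described above, was lower in the knockout (-0.99 ± 0.09, adjusted p = 1.59e-07) and in the knockdown (-1.36 ± 0.09, adjusted p = 2.88e-10).

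Of 8 tested targets of MLX with MondoA or ChREBP, 1 was higher and 3 lower in the knockout (median -0.13), and 2 were higher and 4 lower in the knockdown (median -0.32). The counts were the same in the 6 fits without 1 library. In 5 of them a ninth gene passed the filter, and the medians ran from -0.05 to 0.03 in the knockout and from -0.23 to -0.01 in the knockdown. ARRDC4, an arrestin-like regulator of glucose uptake, stood at 88.7 and 85.6 CPM in control, 53.5 and 55.9 in the knockout and 39.7 and 31.3 in the knockdown. It was lower in both (-0.67 ± 0.11 and -1.30 ± 0.11, adjusted p = 0.000134 and 6.69e-09). TXNIP, its relative and the usual readout of MondoA, stood at 60.4 and 64.7 CPM in control, 29.3 and 35.6 in the knockout and 62.3 and 53.4 in the knockdown. It was lower in the knockout (-0.95 ± 0.12, adjusted p = 7e-06) and was not called in the knockdown (-0.11 ± 0.11, adjusted p = 0.426). ELOVL6, a fatty acid elongase, was lower in the knockdown (-1.84 ± 0.13, adjusted p = 3.19e-10). KLF10, a zinc-finger repressor in the chromosome 8 stretch described above, was lower in both (-0.72 ± 0.14 and -1.41 ± 0.14, adjusted p = 0.000725 and 7.34e-08). Other targets went up. ACLY was higher in the knockout (0.40, adjusted p = 0.0011), at 641 and 633 CPM in control, 825 and 852 in the knockout and 427 and 462 in the knockdown. ACACA stood at 115 and 108 CPM in control, 115 and 113 in the knockout and 158 and 180 in the knockdown.

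**Figure D5:**
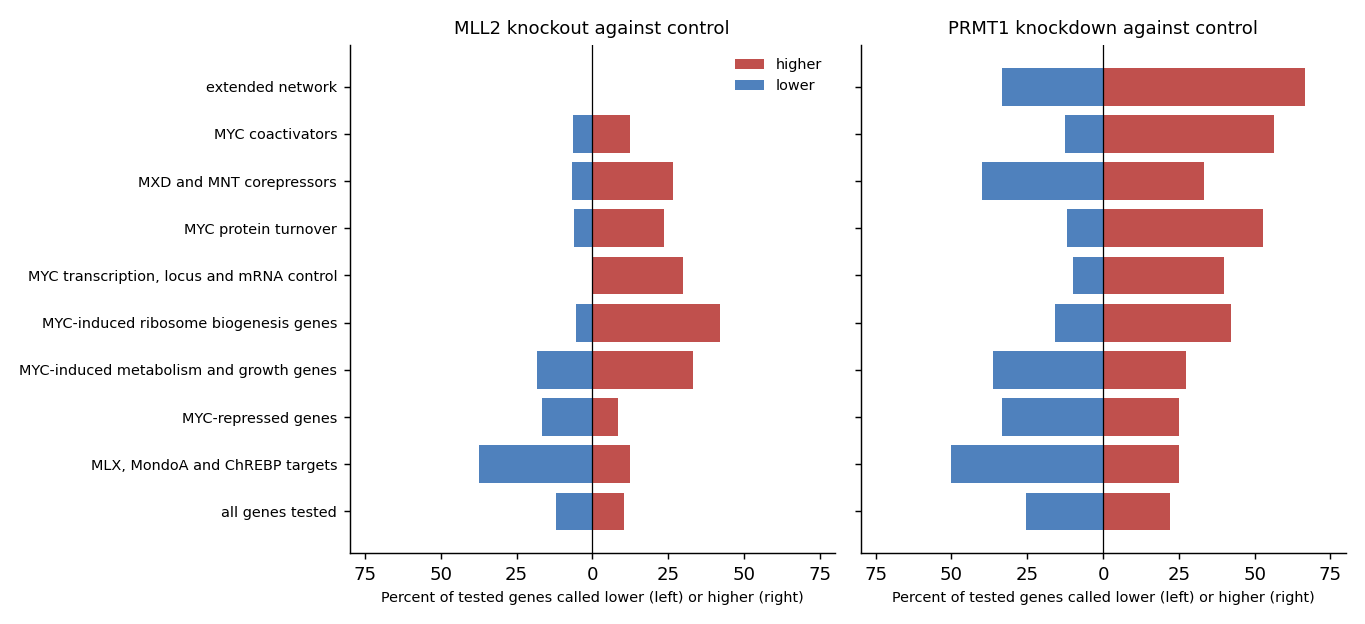
Percent of the tested genes of each list called higher (right, red) or lower (left, blue) in the MLL2 knockout and in the PRMT1 knockdown, each against control, with all genes tested in the bottom row. Lists hold 6 to 33 tested genes, so 1 gene moves a bar by several percent; ribosome biogenesis genes have 8 of 19 higher in both panels.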

How the data were processed

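Total RNA of 293T cells was extracted with TRIzol and made into stranded total RNA libraries, per the labels' protocols. Each library has 1 deposited file of raw read counts by gene. Per the file headers, the authors counted read pairs with featureCounts 2.0.1, GENCODE 34, a minimum mapping quality of 10 and reverse-stranded counting; the submitters' processing notes name FastQC 0.11.4, Trim Galore 0.6.10, STAR 2.7.5a, featureCounts 1.5.0-p1, DESeq2 1.36.0 and hg38. Which featureCounts version applies is not known. Replicate libraries differed beyond sampling noise, most in the knockdown (chi-square per degree of freedom 5.49, 4.40 and 12.4 in control, knockout and knockdown).

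Genes were kept with filterByExpr, scaled by TMM and fitted in edgeR 4.0.16 (glmQLFit, glmQLFTest; R 4.3.3) with a term per group over all 6 libraries. Adjusted p is by Benjamini-Hochberg over all 17575 genes tested, with a threshold of 0.05. The fit was tested on simulated counts. RPKM used the exon length of the count files. A zero or low count has a floor of 3 counts per library, 0.132 to 0.150 CPM, which covers counting error only. The members and lists were chosen with earlier results of these data known. Named genes were the 10 members, the targeted genes, the 5 genes most like MYC and, per list, up to 4 genes with the smallest adjusted p in each depletion; part of the last are printed. Alternatives were other scaling, DESeq2 1.42.0, other filters, the compared groups alone, the replicate number as a block, an exon length correction (a spline with 5 degrees of freedom per library) and leaving out each library. For the list counts, the length correction, the block and the fits without 1 library were added after seeing the data.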

Additional observations from a re-analysis of the deposited data

How the results depend on the processing

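The 27 changes of the 9 tested members were recomputed under 13 alternatives each. Of the 351 values, 331 kept their direction and their side of the threshold, 10 lost the call, 8 gained one and 2 changed sign. The sign changes were both of MNT in the knockdown, to 0.04 without control replicate 2 and 0.20 without knockdown replicate 1; over the fits with 1 library left out it ran from -0.35 to 0.20. The calls lost were MXD3 in the knockout (adjusted p 0.0772 to 0.145 in 3 fits) and MXD4 between knockdown and knockout (adjusted p 0.0528 to 0.306 in 7). The calls gained were MAX and MXI1 in the knockout (3 fits each), MXD1 in the knockout without knockout replicate 1, and MNT between knockdown and knockout without knockdown replicate 1 (0.59, adjusted p = 0.046). Members called in the knockout numbered 3, and 5 with the compared groups alone; leaving out 1 library gave 2 to 5. Genes called in the knockout numbered 3941, and from 1908 to 5492 with 1 library left out. The activator to antagonist ratio was 1.68, 1.20 and 0.741 (control, knockout, knockdown), and 1.25, 0.885 and 0.529 when counts were not divided by exon length. Library numbers are shared between groups, and the deviations of same-numbered libraries correlated at 0.06 (control and knockout), 0.04 (control and knockdown) and 0.20 (knockout and knockdown) over 11509 genes, so that they were not taken as pairs. With the replicate number as a block, 4512, 8710 and 7529 genes were called (3941, 8338 and 7154 without it), and 3, 6 and 5 members, as without it. The block also called PVT1 lower in the knockout (-0.53, adjusted p = 0.0418). A library alone in its group was assumed to vary like the others. Depth limits MYCN, at 1 to 10 counts per library, and MXD1 and MNT, at 54 to 281 counts.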
